A study of Mus musculus with 79 samples.

Results

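The genes of the Polycomb machinery were examined in mouse hypothalamus, by their RNA and by the histone marks at their own promoters. The group holds 33 of the 25965 genes in the RNA table, taken by name and not by any measured value: subunits of Polycomb repressive complex 2 (PRC2), subunits of canonical and variant Polycomb repressive complex 1 (PRC1), and the demethylases that remove the PRC2 mark. All 33 genes passed the filter on low RNA values, and none of the 33 passed the main test (limma) between genotypes in RNA, in any of the 3 marks at promoters or in gene-body H3K36me3. With edgeR 1 member, Cbx8, passed in RNA, promoter H3K27me3 and promoter H3K4me3, and with DESeq2 it passed in RNA. Over the alternative settings that kept every library, these included, calls over all genes or promoters ran from 11 to 249 in RNA. They ran from 9 to 219 in H3K27me3 and from 0 to 277 in H3K4me3. The gene that stood farthest apart was Cbx8, which encodes a PRC1 subunit that binds trimethylated H3K27: its mean RNA level was 1.11 log2 units higher and its promoter H3K27me3 1.02 log2 units lower in the mutant, with no overlap between genotypes in either.

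PRC2 places methyl groups on lysine 27 of histone H3 through its catalytic subunits EZH1 or EZH2, which need EED and SUZ12 to act, and accessory proteins such as JARID2, AEBP2 and the PCL proteins PHF1, MTF2 and PHF19 help bring it to CpG-rich DNA. Canonical PRC1 reads H3K27me3 through a CBX protein and ubiquitinates H2A through RING1 or RNF2, while variant PRC1 carries RYBP or YAF2 and can be brought to unmethylated CpG islands by KDM2B. KDM6A and KDM6B erase H3K27me3, and in neurons the mark is best known for holding developmental regulator genes silent.

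The 2 genotypes of C57BL/6Babr mice compared were both about 14 weeks old. The +/+ animals carried wild-type Dnmt3a on both alleles. The Δ/D329A animals had inherited from the mother a Dnmt3a allele without exon 18 (Δ, recombined in the oocyte by Zp3-Cre, which the Zp3 promoter drives there alone) and from the father an allele with the D329A substitution in the PWWP domain of DNMT3A, a DNA methyltransferase whose PWWP domain recognises methylated H3K36. Every cell of such an animal therefore has 1 deleted and 1 substituted copy, and the part of each allele cannot be told apart with these 2 genotypes. RNA was sequenced from 5 +/+ and 4 Δ/D329A hypothalami, 1 library per animal, and H3K27me3, H3K4me3, H3K36me3 and input chromatin from 3 animals of each genotype. By the reads on chromosomes X and Y, the RNA libraries came from females and the chromatin libraries from males. There was 1 read on the 4 Y-linked genes looked up over all 9 RNA libraries, and 0.415 to 0.429 times as much input signal per tile on chromosome X as on autosomes. The study's legends give males for the marks, and for RNA females in a supplementary legend but males in a main one. RNA and marks were therefore never measured in the same animals or the same sex.

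RNA libraries held 3874084 to 9976687 reads on genes and chromatin libraries 12676361 to 30207875 reads. The summed level of 14 hypothalamic peptide genes was 418 to 879 RPKM in +/+ and 482 to 699 RPKM in Δ/D329A, and every gene of that list had reads. Single genes of the list went both ways, with 6 of the 14 higher in the mutant mean and 2 at an unadjusted p under 0.05 (limma). The Dnmt3a RNA level was 1.71 to 2.11 log2 RPKM in +/+ and 1.51 to 1.72 in Δ/D329A, a difference of -0.28 (SE 0.13, limma adjusted p = 0.355) over the whole gene, which does not test the deleted exon. Among the 5 +/+ RNA libraries, replicate 1 was the highest for 22 of the 33 Polycomb genes (66.7%) and for 58.9% of all genes tested. Replicate 5 was the lowest for 14 of the 33 and for 49.5% of all genes tested. A difference of level between these libraries therefore runs through most genes. Summed levels of 7 cortical and striatal neuron markers, none of them at 0, were 3.89 to 6.04 RPKM in +/+ and 6.56 to 8.16 RPKM in Δ/D329A, with 5 of the 7 genes higher in the mutant mean and 3 at an unadjusted p under 0.05. Thalamic neuron markers summed to 11.2 to 16.5 RPKM against 16.3 to 36.3 RPKM, with 5 of 5 genes higher and 3 under 0.05. Erythroid markers were higher in 3 of 3 genes (2 under 0.05) and oligodendrocyte precursor markers in 0 of 4 (1 under 0.05). Of the marker lists, only the cortical and striatal sums did not overlap between genotypes. The part of these differences between libraries and in markers in the results was not tested. In whole tissue, fewer cells of a type and less RNA per cell cannot be told apart.

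RNA levels, given as log2 RPKM (reads divided by gene length and library size), ran over a range of nearly 7 log2 units from Rbbp7, a histone chaperone shared by PRC2 and other complexes, at 4.01 ± 0.37 (SD, n = 5 +/+ libraries) down to Phf19 at -2.93 ± 0.27. Rbbp7 lay above 95.2% of 25952 nuclear genes and Phf19 above 38.9%, on 3 to 14 reads per library. In the PRC2 core, the catalytic gene with more RNA was Ezh1, at 2.24 ± 0.37 in +/+, against -0.47 ± 0.24 for Ezh2, which is the form of dividing cells. The Ezh1 level was 2.77, 2.40, 2.17, 2.10 and 1.77 in the +/+ libraries and 2.38, 2.29, 2.33 and 2.46 in the Δ/D329A libraries. Ezh2 was at -0.42, -0.07, -0.70, -0.59 and -0.56 in +/+ and at -0.11, -0.47, -0.56 and -0.04 in Δ/D329A. Ezh1 exceeded Ezh2 in 9 of 9 libraries, by 2.71 ± 0.34 log2 units in +/+ and 2.66 ± 0.19 in Δ/D329A, and neither gene's level separated the genotypes. Eed, Suz12 and Rbbp4 were at 1.41, 1.96 and 2.70 in +/+.

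Among the PRC2 accessory genes, Phf1 was highest at 2.71 ± 0.55 in +/+ and Phf19 lowest. Phf1 and Mtf2, both PCL proteins, could not be ordered, since Phf1 was the higher in 6 of 9 libraries, while Mtf2 exceeded Phf19 by at least 4.55 log2 units in every library. Aebp2 and Jarid2 were at 1.69 and 1.11.

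The CBX genes kept a strict order, with Cbx6 above Cbx7, Cbx7 above Cbx8 and Cbx8 above Cbx2 in 9 of 9 libraries. Cbx6 was at 3.86 ± 0.48 in +/+, Cbx7 at 1.88 ± 0.46, Cbx8 at 0.06 ± 0.57 and Cbx2 at -1.68 ± 0.47. The RING ligase Rnf2 (2.20 ± 0.27) exceeded Ring1 (1.24 ± 0.44) in all 9 libraries, by as little as 0.0038 log2 units in the closest of them. Of the PCGF subunits, which decide the type of PRC1 that forms, Bmi1 and Pcgf5 shared the top (2.26 ± 0.32 and 2.15 ± 0.23, Bmi1 higher in 7 of 9 libraries), Pcgf1, Pcgf6 and Pcgf3 followed at 1.54, 1.52 and 1.33 in no fixed order, and Pcgf2 was lowest at -0.34 ± 0.25 in every library. Phc3 led the polyhomeotic genes at 2.34 ± 0.06, ahead of Phc1 in 9 of 9 libraries, and Phc1 was above Phc2 (1.61 ± 0.33) in 7 of 9. In variant PRC1, Yaf2 at 3.83 ± 0.27 was above its paralogue Rybp (1.95 ± 0.60) in 9 of 9 libraries, and Kdm2b was lowest at -0.08 ± 0.16. Of the erasers, Kdm6a was at 1.90 ± 0.10 and Kdm6b at 0.35 ± 0.35, a difference of 0.695 log2 units or more in each library. The Kdm6a level was 2.02, 1.99, 1.79, 1.83 and 1.89 in +/+ and 1.84, 1.51, 1.92 and 1.88 in Δ/D329A, and that of Kdm6b 0.16, 0.09, 0.24, 0.28 and 0.95 against 0.54, 0.82, 0.44 and 0.27, so both overlapped between genotypes.

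**Figure D1:**
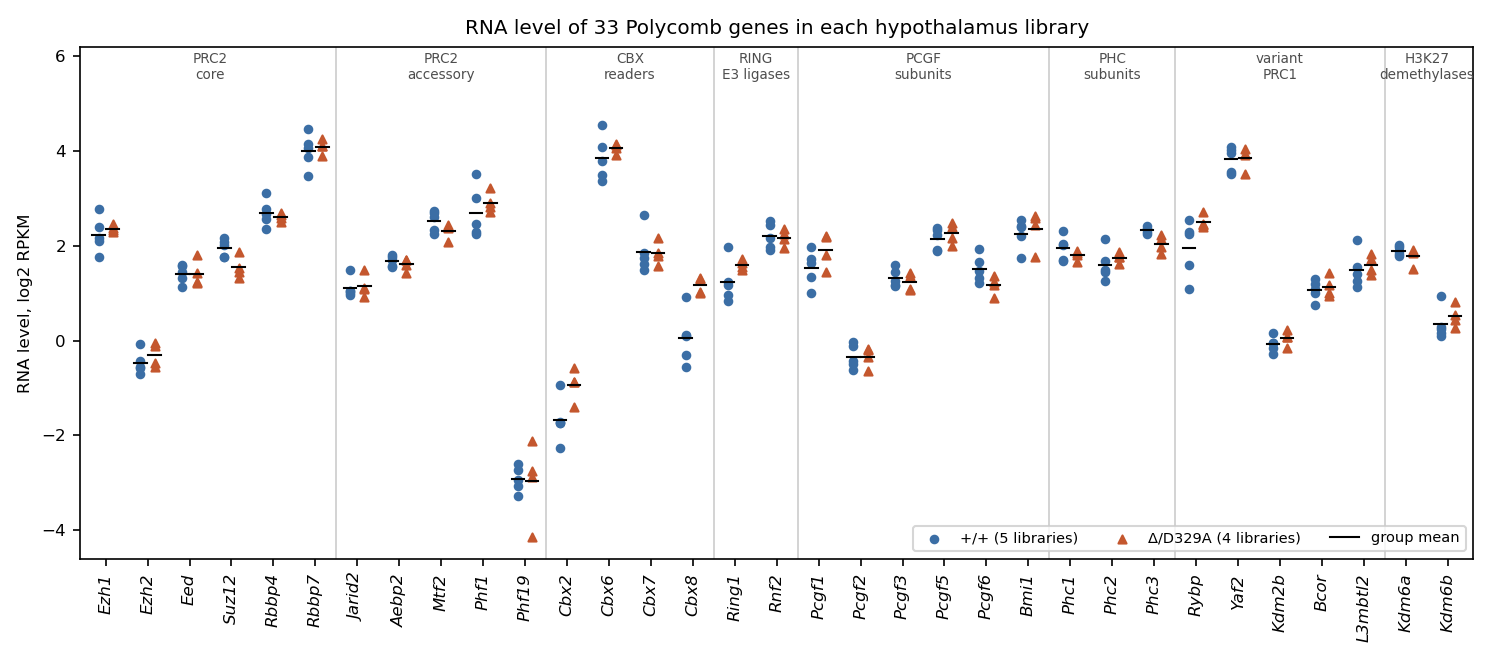
RNA level (log2 RPKM) of the 33 genes by role, with a circle for each of the 5 +/+ libraries, a triangle for each of the 4 Δ/D329A libraries and a bar at each group mean. Cbx8 is the gene whose mutant libraries (1.01 to 1.33) all lie above the +/+ libraries (-0.56 to 0.93), and Phf19 and Cbx2 are the lowest of the group.

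H3K4me3 marked most of these promoters. Mark and input of the same animal were compared over the promoter, from 1500 bp before to 500 bp after the gene start, and a mark was called above or below input at an adjusted p under 0.05 (limma) and a log2 ratio beyond 1. H3K4me3, the mark of active and poised starts, was above input at 30 of 33 promoters in +/+, where 57.3% of all promoters were above and 31.9% below. Kdm6a had the highest ratio, at 6.26 log2 units (SE 0.20), and Jarid2 the lowest of the 30, at 2.33 (SE 0.22). Kdm6a, like Rbbp7 and Bcor, lies on chromosome X, where input of these males was 0.415 to 0.429 times that on autosomes. The order is therefore of ratios and not of signal. Cbx7 was below input (-1.42, SE 0.35), and Aebp2 (-0.31, SE 0.30) and Pcgf5 (0.03, SE 0.28) were neither.

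The genes without the mark at the listed start had it elsewhere. The tile with the most H3K4me3 over the gene and its flanks lay within 1500 bp of the listed start in 25 of 33 genes and more than 20 kb inside it in 5, and those 5 tiles lay 18 to 553 bp from another annotated start of the same gene. For Cbx7 this tile was 39.1 kb inside the gene at 22.8 ± 1.49 RPM (reads per tile divided by library size, +/+, SD, n = 3), where H3K27me3 was 0.22 RPM. For Pcgf5 it was 30.9 kb inside at 17.9 ± 0.13 RPM. Phc2, Kdm2b and Bcor, which did have H3K4me3 at the listed start, had their highest tile 73.3, 26.1 and 80.4 kb inside the gene. For Cbx7 and Pcgf5 the promoter values below therefore describe a start without H3K4me3 above input. Aebp2, at 1.55 kb, had its highest tile just past the window.

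H3K27me3 was scarce at these promoters. In +/+ it was above input at 2 of 33, Cbx8 with a log2 ratio of 1.95 (SE 0.21) and Cbx2 with 1.05 (SE 0.22), against 11.9% of all promoters, and below input at 21 of 33, against 38.9%. In the Δ/D329A animals no member was above input (13% of all promoters were), Cbx8 standing at 0.71 and Cbx2 at 0.10, and 23 were below (40.2%). A ratio of at least 1 in each of the 6 animals was reached by 7.4% of all promoters and by none of the 33. Promoters of the PRC2 core held almost none of the mark that PRC2 makes: Ezh1, Ezh2, Eed, Suz12, Rbbp4 and Rbbp7 had log2 ratios of -2.25 to -1.33 in +/+, resting on 0 to 6 reads per library. Phf19 (0.25), Cbx7 (0.14), Pcgf1 (0.06) and Pcgf2 (0.52) were near or above the input level without passing the test.

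**Figure D2:**
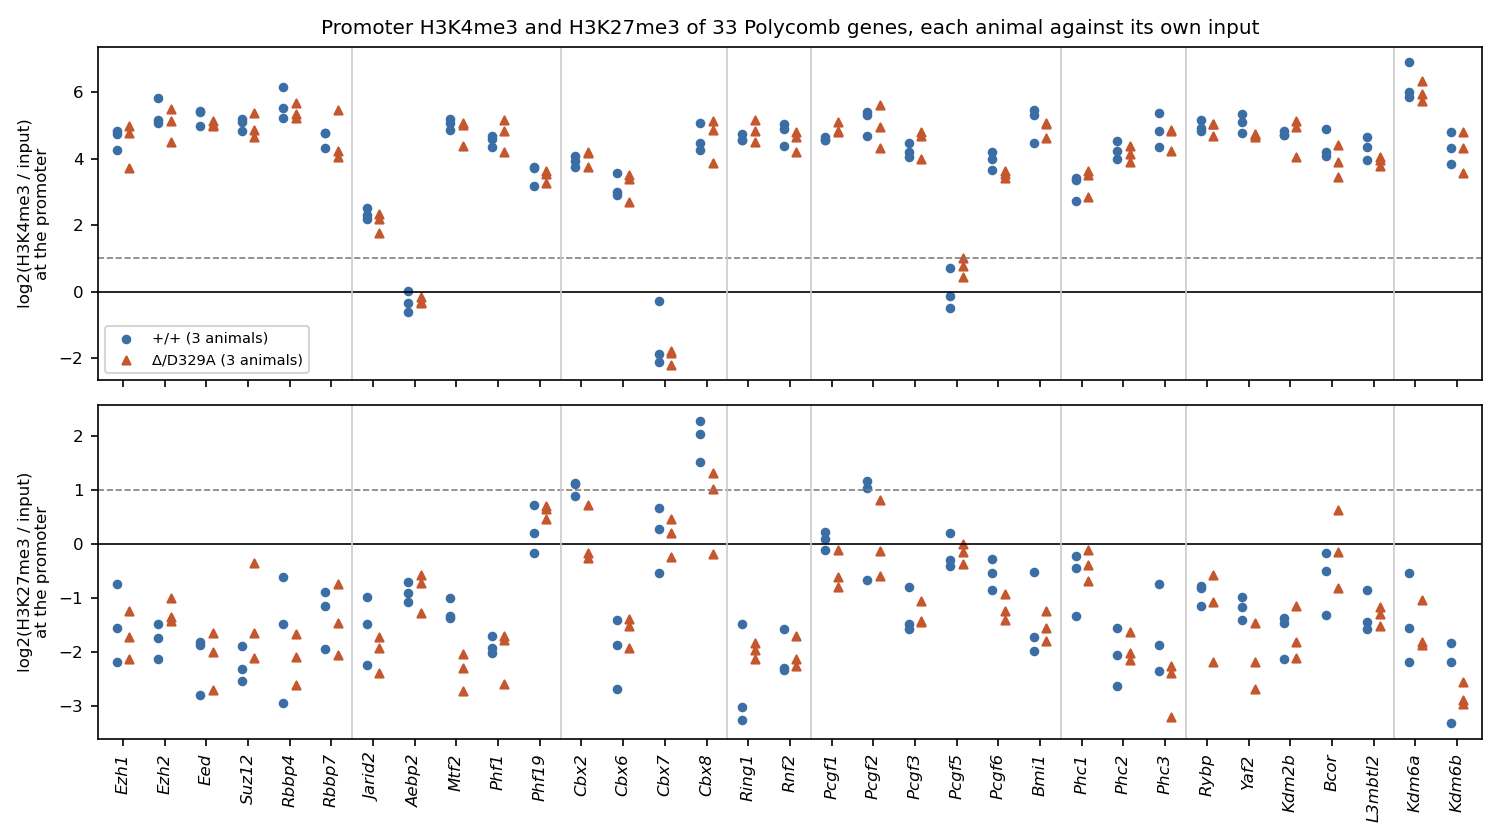
Log2 ratio of H3K4me3 (top) and H3K27me3 (bottom) to the input of the same animal at 33 promoters, with circles for 3 +/+ and triangles for 3 Δ/D329A animals. The solid line is the input level and the dashed line a ratio of 1 on the log2 scale. H3K4me3 fails to exceed input at Aebp2, Cbx7 and Pcgf5, and H3K27me3 clears the dashed line in all +/+ animals at Cbx8 alone.

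Sequences of the promoters show how far these genes are CpG-rich. RefSeq promoters (GRCm38.p6, from 250 bases before to 50 after the start) matched 28 of the 33 genes, and 17 of the 28 starts were within 50 bp of the start in the RNA table. Of all 32851 such promoters, 94.6% held at least 1 CG, the dinucleotide that DNMT3A methylates, with a median of 7, and the members held 4 to 41 with a median of 23.5. Shown are Cbx8, which carried both marks in +/+, Suz12, the member with the most CG, Pcgf5, whose start had neither mark, and Cbx7, whose RefSeq start lies 38473 bp from the one in the table, next to its highest H3K4me3 tile. Each runs 5′ to 3′ on the gene's strand with CG in capitals: Cbx8 is chr11:119040864-119041163 (minus strand), Suz12 chr11:79992856-79993155 (plus), Pcgf5 chr19:36378817-36379116 (plus) and Cbx7 chr15:79932597-79932896 (minus).
Cbx8: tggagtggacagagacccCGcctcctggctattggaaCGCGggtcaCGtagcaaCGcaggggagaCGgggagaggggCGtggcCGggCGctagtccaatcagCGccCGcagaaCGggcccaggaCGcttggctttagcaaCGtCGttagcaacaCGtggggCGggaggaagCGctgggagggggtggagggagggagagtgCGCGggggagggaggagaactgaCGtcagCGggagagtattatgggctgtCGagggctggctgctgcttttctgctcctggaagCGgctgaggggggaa
Suz12: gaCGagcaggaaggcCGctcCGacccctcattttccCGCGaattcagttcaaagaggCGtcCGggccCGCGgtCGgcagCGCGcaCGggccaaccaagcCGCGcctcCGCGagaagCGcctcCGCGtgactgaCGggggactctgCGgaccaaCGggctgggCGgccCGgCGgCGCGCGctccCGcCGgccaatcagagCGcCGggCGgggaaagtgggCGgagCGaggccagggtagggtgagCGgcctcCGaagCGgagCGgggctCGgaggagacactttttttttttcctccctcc
Pcgf5: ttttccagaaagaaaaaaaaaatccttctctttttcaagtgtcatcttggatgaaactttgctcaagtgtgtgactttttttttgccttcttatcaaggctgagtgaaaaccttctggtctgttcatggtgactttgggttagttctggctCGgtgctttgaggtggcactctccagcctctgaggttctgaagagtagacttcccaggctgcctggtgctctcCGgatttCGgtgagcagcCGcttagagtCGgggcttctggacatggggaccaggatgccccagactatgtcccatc
Cbx7: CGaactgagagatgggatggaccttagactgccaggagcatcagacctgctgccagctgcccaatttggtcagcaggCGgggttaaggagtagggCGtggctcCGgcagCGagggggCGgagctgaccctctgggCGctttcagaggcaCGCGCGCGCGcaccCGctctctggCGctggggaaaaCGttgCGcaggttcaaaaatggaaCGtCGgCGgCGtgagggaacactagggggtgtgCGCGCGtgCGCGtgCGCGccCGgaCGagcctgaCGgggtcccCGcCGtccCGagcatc
Cbx8 held 24 CG, a number that 20% of all promoters reach, Suz12 held 41 (3.46% reach it) and Cbx7 held 33 (8.56%). Pcgf5 held 5, which 62.0% of promoters reach, with a G and C content of 48.3% against 66.0% at Cbx8. Aebp2, whose listed start also had no H3K4me3, held 4, the fewest of the 28.

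The first comparison asked whether the mutant changes the RNA of the Polycomb machinery. Over all 17839 genes tested, 19 (0.107%) passed an adjusted p under 0.01 in limma, and 0 of the 33 did. With edgeR and with DESeq2 1 member, Cbx8, passed. Over the 10 alternative settings that kept every library, these 2 methods among them, 11 to 249 of all genes and 0 to 1 members passed. At an unadjusted p under 0.05 there were 4 members, Cbx8, Cbx2, Suz12 and Phc3, which is 12.1% of the members against 7.62% of all genes. The median log2 difference of the members was 0.07 and that of all genes 0.06, with 20 members higher and 13 lower in the mutant mean. Genotypes did not overlap, with the mutant above, in 1 member (Cbx8) and 1.78% of all genes, and with the mutant below in 1 member (Phc3) and 1.23% of all genes.

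The Cbx8 level was 0.93, 0.11, 0.11, -0.31 and -0.56 log2 RPKM in the +/+ libraries and 1.03, 1.01, 1.30 and 1.33 in the Δ/D329A libraries, from 42 to 129 reads. All mutant libraries were above all +/+ libraries, the nearest +/+ library being replicate 1, and the +/+ libraries spread more widely (SD 0.57 against 0.17). Among the +/+ libraries, replicate 1 was also the highest for 58.9% of all genes tested, and replicate 5 the lowest for 49.5%. The difference was 1.11 (SE 0.27, limma adjusted p = 0.241), a mean of 2.26 RPKM against 1.11 RPKM, with an exact permutation p of 0.016 (two-sided, 5 against 4 libraries, smallest possible p 0.0079). The permutation test was run only for members without overlap, which sets its p near the smallest possible beforehand, so it adds no support. The Cbx8 difference passed the threshold with edgeR (1.05, adjusted p = 0.0056) and with DESeq2 (1.05, adjusted p = 2.4e-05) on the recovered reads, and over 19 other settings the difference ran from 0.65 to 1.33 with adjusted p values from 2.4e-05 to 0.566. Without +/+ replicate 1 the limma adjusted p was 0.026, still above the threshold of 0.01. After median centring of the libraries the difference was 1.09 (SE 0.17, limma adjusted p = 0.0138). After quantile normalization it was 1.10 (SE 0.18, limma adjusted p = 0.0266), and both stayed above that threshold. Set against Cbx7 in the same library, Cbx8 was 1.82 ± 0.21 log2 units lower in +/+ and 0.68 ± 0.30 lower in Δ/D329A. That ratio varied less than Cbx8 itself among the +/+ libraries (SD 0.21 against 0.57) and more among the Δ/D329A libraries (0.30 against 0.17).

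Cbx2, the neighbour of Cbx8 and also an H3K27me3 reader, was at -0.93, -1.73, -1.74, -1.72 and -2.26 log2 RPKM in +/+ and -0.57, -1.40, -0.87 and -0.87 in Δ/D329A, from 15 to 42 reads. Its +/+ replicate 1 lay among the mutant libraries, and the difference was 0.75 (SE 0.27, limma adjusted p = 0.355). Cbx6 and Cbx7, the abundant CBX genes, differed by 0.20 (SE 0.23) and -0.03 (SE 0.23).

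Phc3, a polyhomeotic subunit of canonical PRC1, was at 2.35, 2.36, 2.41, 2.26 and 2.29 log2 RPKM in +/+ and 2.15, 1.83, 1.98 and 2.24 in Δ/D329A, from 548 to 1377 reads. The closest libraries of the genotypes were 0.02 apart. The difference was -0.29 (SE 0.13, limma adjusted p = 0.355, exact permutation p = 0.0079, the smallest possible). As at Cbx8, the lack of overlap that led to the permutation test set its p beforehand. Suz12, named here after its values were seen, was at 1.76, 2.09, 1.77, 2.16 and 2.02 in +/+ and 1.88, 1.53, 1.32 and 1.46 in Δ/D329A. Its mutant replicate 1 overlapped the +/+ range, and the difference was -0.41 (SE 0.16, limma adjusted p = 0.355).

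The other roles gave values smaller than those of Cbx8 and Cbx2, and none of them passed the test. The catalytic genes Ezh1 and Ezh2 differed by 0.13 (SE 0.19) and 0.17 (SE 0.20), and the erasers Kdm6a and Kdm6b by -0.11 (SE 0.13) and 0.17 (SE 0.21). Across the 5 PRC2 accessory genes differences ran from -0.20 to 0.21, across the 6 PCGF genes from -0.35 (Pcgf6) to 0.37 (Pcgf1), and in the RING pair from -0.03 (Rnf2) to 0.36 (Ring1). All 5 variant PRC1 genes were higher in the mutant mean, by 0.03 (Yaf2) to 0.55 (Rybp, SE 0.27). Yaf2 kept that direction in 15 of 19 other settings and Bcor in 17 of 19. The Rybp value rested on +/+ replicates 4 and 5, at 1.60 and 1.08 against 2.25 to 2.54 in the other +/+ libraries and 2.40 to 2.71 in the mutant.

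**Figure D3:**
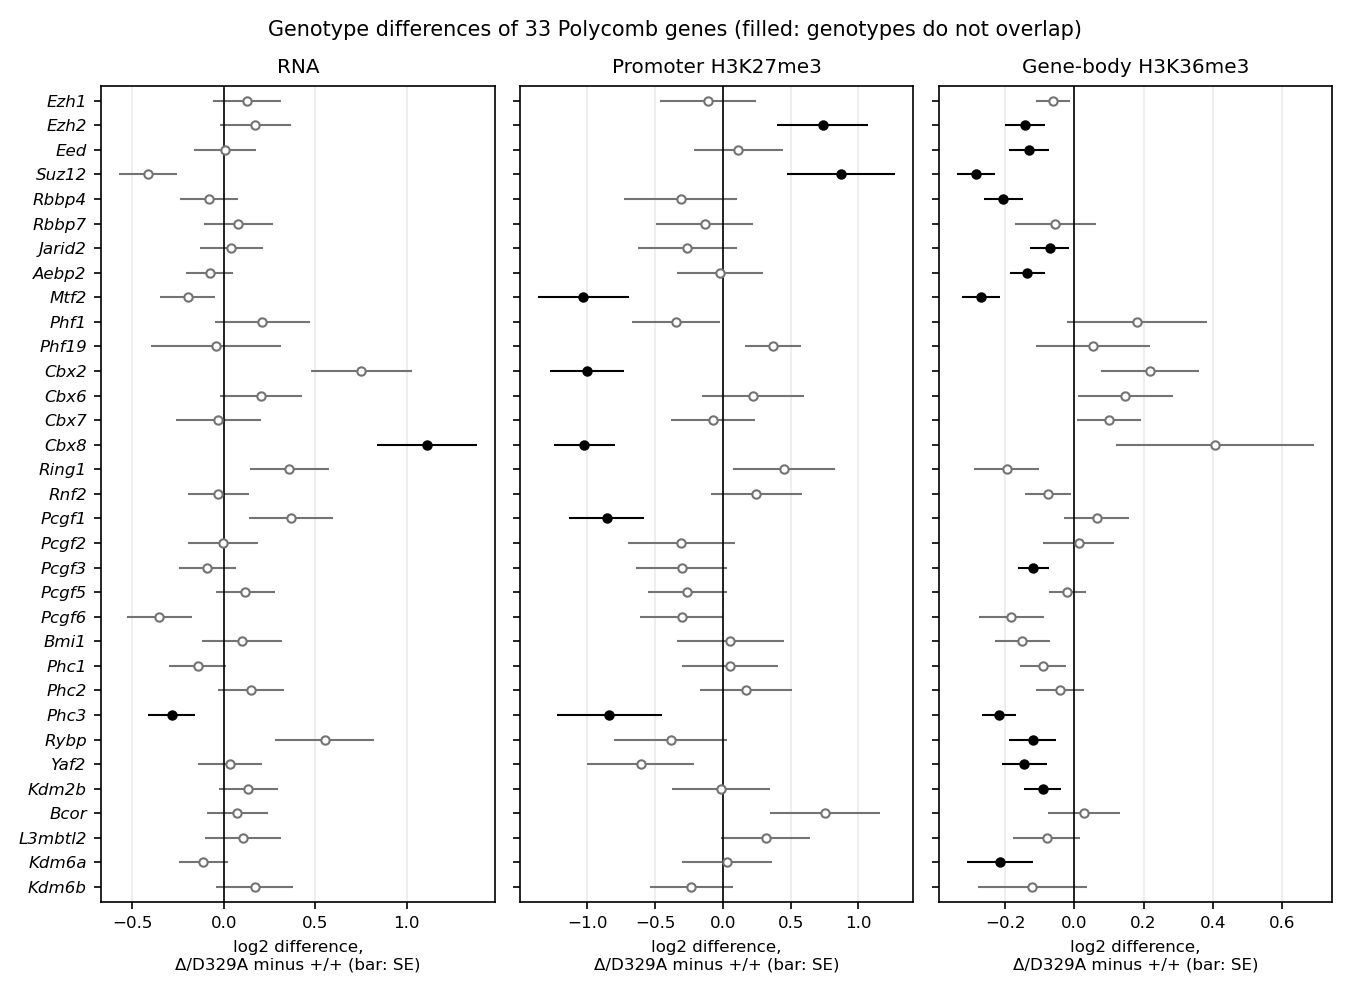
Log2 difference, Δ/D329A minus +/+, with its SE for the 33 genes in RNA (5 against 4 libraries), promoter H3K27me3 and gene-body H3K36me3 (3 against 3 each). Filled points are genes whose genotypes do not overlap, and the 3 horizontal axes have different scales. Cbx8 lies at 1.11 in RNA and -1.02 in H3K27me3, and most gene-body values lie below 0.

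The second comparison asked whether the marks at the members' own promoters differ between genotypes. For H3K27me3, 18 of 25572 promoters (0.0704%) passed an adjusted p under 0.05 in limma, and 0 of the 33. With edgeR 1 member, Cbx8, passed. Over the 9 alternative settings that kept every library, edgeR among them, 9 to 219 of all promoters and 0 to 2 members passed. At an unadjusted p under 0.05 there were 5 members (15.2%, against 8.83% of all promoters). Genotypes did not overlap, with the mutant below, in 5 members (15.2%, against 7.43%): Cbx8, Cbx2, Pcgf1, Mtf2 and Phc3. With the mutant above there were 2, Ezh2 and Suz12 (6.06%, against 6.39%).

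Promoter H3K27me3 of Cbx8 was 2.55, 2.52 and 3.40 RPM per 2000 bp tile in the +/+ animals and 0.91, 1.70 and 1.498 in the Δ/D329A animals, against input of 0.44 to 1.04 RPM. Each mutant animal was below each +/+ animal. The difference was -1.02 (SE 0.23, limma adjusted p = 0.140). It passed with edgeR (-1.07, adjusted p = 0.042), after median centring (adjusted p = 0.011), after quantile normalization (0.0022) and among promoters of at least 0.5 RPM (0.0099), and over 15 other settings the adjusted p ran from 0.0022 to 0.476 and the difference from -1.24 to -0.77. Of the promoters with a mean log2 ratio to input of at least 1 over the 6 animals, a set that held Cbx8, the mutant was below without overlap in 10.4%.

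At Cbx2 the values were 1.67, 1.56 and 2.01 RPM in +/+ and 0.67, 1.36 and 0.58 in Δ/D329A, a difference of -1.003 (SE 0.27, limma adjusted p = 0.281), which passed after quantile normalization (adjusted p = 0.027) and among promoters of at least 0.5 RPM (0.036) and had adjusted p values up to 0.722 otherwise. Here too the genotypes did not overlap, with mutant replicate 2 close to the +/+ animals. Mitochondrial coverage was 18.1 to 36.8 RPM in +/+ replicate 3 and mutant replicates 2 and 3 and 4.07 to 10.3 RPM in the other H3K27me3 libraries. Within the low set Cbx8 and Cbx2 differed between genotypes by -1.39 and -1.15, and within the high set by -1.04 and -1.08 (2 against 1 and 1 against 2 libraries, no test).

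Pcgf1, which belongs to the KDM2B form of variant PRC1, was at 0.94, 0.72 and 0.99 RPM in +/+ and 0.34, 0.61 and 0.41 in Δ/D329A (-0.86, SE 0.28, adjusted p = 0.394), around the input level. Pcgf1, Mtf2 and Suz12, like Pcgf5 above, were named after their values were seen. At Mtf2 (-1.03), Phc3 (-0.84), Ezh2 (0.74) and Suz12 (0.87) the signal was below input in both genotypes and rested on 0 to 9 reads per library, so these differences are between values near the background. All 4 had adjusted p values of 0.394 to 0.566.

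H3K27me3 next to Cbx8 formed a domain that reached well beyond its promoter. Cbx2 (chr11:119022962-119031270, plus strand) and Cbx8 (chr11:119036305-119040969, minus) lie side by side in GRCm38. The regions below were chosen after the values were seen and are given with no test. Over the 20 kb upstream of Cbx8, mean H3K27me3 was 4.85, 4.25 and 5.11 RPM per tile in +/+ and 2.91, 3.10 and 3.32 in Δ/D329A, 34.4% lower with no overlap. The highest tile, 9031 bp upstream of the Cbx8 start, was at 6.62 ± 0.91 RPM in +/+ and 4.42 ± 0.61 in Δ/D329A. H3K4me3 over the same 20 kb was 4.78, 4.37 and 4.94 RPM in +/+ and 5.28, 7.39 and 7.08 in Δ/D329A, so the marks differed in opposite directions there, with input at 0.74 ± 0.06 and 0.86 ± 0.06. In the 10 kb upstream of Cbx2, H3K27me3 was 1.84, 1.98 and 2.39 RPM against 1.40, 1.69 and 1.67. From 20 to 40 kb upstream of Cbx2, taken for comparison, it was 1.45 ± 0.10 in +/+ and 1.28 ± 0.10 in Δ/D329A, 11.6% lower with overlap.

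**Figure D4:**
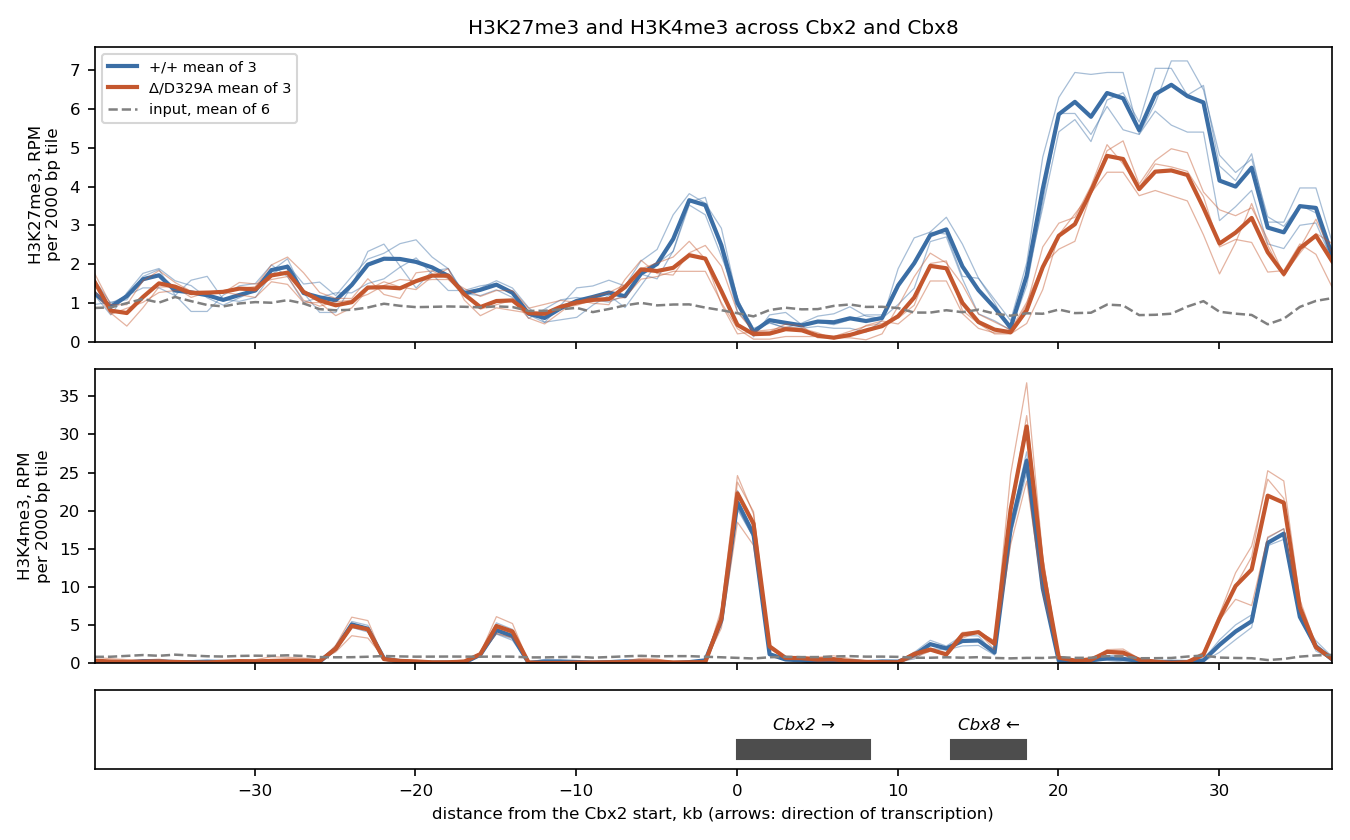
H3K27me3 (top) and H3K4me3 (middle) in RPM per 2000 bp tile along Cbx2 and Cbx8, against distance from the Cbx2 start in kb, with thin lines for single animals, thick lines for the mean of 3 and a dashed line for input. The H3K27me3 domain upstream of Cbx8 peaks at 6.62 RPM in +/+ and stands at 4.42 RPM there in Δ/D329A, and H3K4me3 peaks at the starts of both genes and at a further site upstream of Cbx8 in both genotypes.

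H3K4me3 at promoters gave 0 calls among 25561 promoters (0%) and 0 among the 33 (limma; 857 promoters and 0 members had an unadjusted p under 0.05). The mutant was above without overlap in 0 members (1.86% of all promoters) and below in 1, Bcor (4.29%), at 10.3, 10.5 and 10.3 RPM in +/+ and 7.02, 9.82 and 8.97 in Δ/D329A (-0.28, SE 0.15). Bcor, a PRC1.1 subunit, was named after its values were seen. Cbx8 was at 18.3, 17.3 and 19.0 RPM in +/+ and 16.6, 25.4 and 23.1 in Δ/D329A, and the difference of 0.23 (SE 0.18, limma adjusted p = 1) was carried by mutant replicates 2 and 3. Mutant replicate 1 had the highest background of the 6 H3K4me3 libraries, with a median of 5 reads per tile against 1 to 3, and without it the Cbx8 value was 0.41 (adjusted p = 0.503). Cbx8 passed after median centring (0.42, adjusted p = 0.025), after quantile normalization (0.32, 0.033) and with edgeR (0.29, 0.021), while over all 15 other settings the difference ran from 0.02 to 0.42. Over the 9 of these settings that kept every library, 0 to 277 of all promoters passed. Median centring added 0.19 to each H3K4me3 difference and took 0.18 from each H3K36me3 promoter difference. At Cbx2 the difference was 0.06 (SE 0.15).

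H3K36me3 at promoters, where the mark is normally absent, gave 0 calls in limma among 25562 (0%, with 1673 at an unadjusted p under 0.05) and 0 among the 33. The mutant was above without overlap in 3 members, Kdm6a, Ring1 and Jarid2 (9.09%, against 9.13% of all promoters), and below in 1, Cbx7 (3.03%, against 2.7%). The largest of these, Kdm6a, was at 0.04, 0.02 and 0.10 RPM in +/+ and 0.12, 0.32 and 0.39 in Δ/D329A (1.22, SE 0.37, adjusted p = 0.732), with input at 0.14 to 0.40 RPM.

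Gene-body H3K36me3, which follows transcription and is the mark the PWWP domain of DNMT3A recognises, was above input over 10 of the 33 genes in +/+ (30.3%, against 16.3% of all genes) and over 6 in the Δ/D329A animals (11.7% of all genes). The highest ratios were those of Suz12 (1.49, SE 0.05), Rbbp4 (1.47, SE 0.08), Pcgf6 (1.42, SE 0.13) and Rbbp7 (1.38, SE 0.09), and the lowest that of Phf19 (-0.62, SE 0.12), also the least transcribed. Between genotypes 0 of 23486 gene bodies (0%) passed an adjusted p under 0.05 in limma, and 168 did with edgeR, none of them members. At an unadjusted p under 0.05 there were 7 members (21.2%, against 15.7%).

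The mutant was below without overlap over 13 of the 33 gene bodies (39.4%), against 15% of all genes, and above over 0 (7.19%). The share was higher among transcribed genes: at a mean of at least 1 log2 RPKM it was 29.5% of 9104 genes and 11 of the 26 members at that level (42.3%). Suz12 had the largest such difference, at 2.55, 2.40 and 2.40 RPM in +/+ and 1.92, 2.12 and 1.94 in Δ/D329A (-0.29, SE 0.06, limma adjusted p = 0.233). Mtf2 was at 2.20, 2.11 and 2.29 against 1.77, 1.92 and 1.74 (-0.27, SE 0.05, adjusted p = 0.233), and Phc3 at 2.46, 2.43 and 2.38 against 2.01, 2.19 and 2.01 (-0.22, SE 0.05, adjusted p = 0.233). After quantile normalization the difference shrank to -0.17 at Suz12 (limma adjusted p = 0.541) and -0.10 at Phc3 (0.581). Suz12, Mtf2 and Phc3 were also lower in mean RNA (-0.41, -0.20 and -0.29). Of the 13, Kdm6a (-0.11), Pcgf3 (-0.09), Rbbp4 (-0.08) and Aebp2 (-0.08) were lower in mean RNA too. The rest were higher in mean RNA: Rybp (0.55), Ezh2 (0.17), Kdm2b (0.13), Jarid2 (0.04), Yaf2 (0.03) and Eed (0.01). Cbx8 and Cbx2 had gene-body values of 0.41 (SE 0.29) and 0.22 (SE 0.14) with overlap, over 4 and 8 tiles.

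A wider list of 70 genes, holding further PRC2 and PRC1 partners, the PR-DUB deubiquitinase, PhoRC and MBT proteins, and the trithorax and SWI/SNF antagonists, also gave no call in limma. None of the 69 tested for RNA, and none of the 70 in any of the 4 chromatin comparisons between genotypes, passed the limma test. In RNA, 6 of the 69 had an unadjusted p under 0.05 (7.62% of all genes). Without overlap, 4 lay above (1.78% of all genes) and 2 below (1.23%). At promoters in +/+, H3K4me3 was above input at 63 of 70 (57.3% of all promoters). H3K27me3 was above input at 3 (11.9% of all promoters), the PRC2 partner Epop and the MBT-domain genes Sfmbt2 and L3mbtl4, and below at 57 (38.9%). Gene-body H3K36me3 was lower in the mutant without overlap in 26 of 70, against 15% of all genes and 29.5% of genes at a mean of at least 1 log2 RPKM.

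The 3 marked genes of that list differed from each other. Epop was at 3.40, 3.002 and 3.69 RPM of promoter H3K27me3 in +/+ and 3.29, 2.67 and 2.51 in Δ/D329A (-0.25, SE 0.16), with an RNA difference of 0.34 (SE 0.59). L3mbtl4 had H3K27me3 of 2.83, 2.82 and 2.31 RPM against 2.59, 2.58 and 2.97 (0.03, SE 0.15), while its RNA was higher in every mutant library, by 0.82 (SE 0.22, limma adjusted p = 0.313). Sfmbt2, a PhoRC-related repressor that is named after its values were seen, was at 5.88, 6.15 and 5.999 RPM in +/+ and 1.85, 3.90 and 2.79 in Δ/D329A (-1.11, SE 0.21, adjusted p = 0.0897). Its RNA was 0.51, 0.22, 0.02, 0.03 and 0.10 log2 RPKM in +/+ and 0.91, 0.68, 0.85 and 1.05 in Δ/D329A (0.70, SE 0.16, adjusted p = 0.234), so Sfmbt2 and Cbx8 shared the pattern of more RNA and less H3K27me3 without overlap. Sfmbt2 passed in 2 of 19 other settings in RNA and in 6 of 15 in H3K27me3. Promoter H3K4me3 differed between the 2 genes. It was lower without overlap at Sfmbt2 (-0.76, SE 0.37) and higher in the mean with overlap at Cbx8 (0.23, SE 0.18).

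Other genes showed that pattern too. Of the 317 genes with higher RNA in all mutant libraries, 12.6% had lower promoter H3K27me3 in all mutant animals, against 8.01% of the 17744 genes tested for both, and the RNA and the mark came from different animals.

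**Figure D5:**
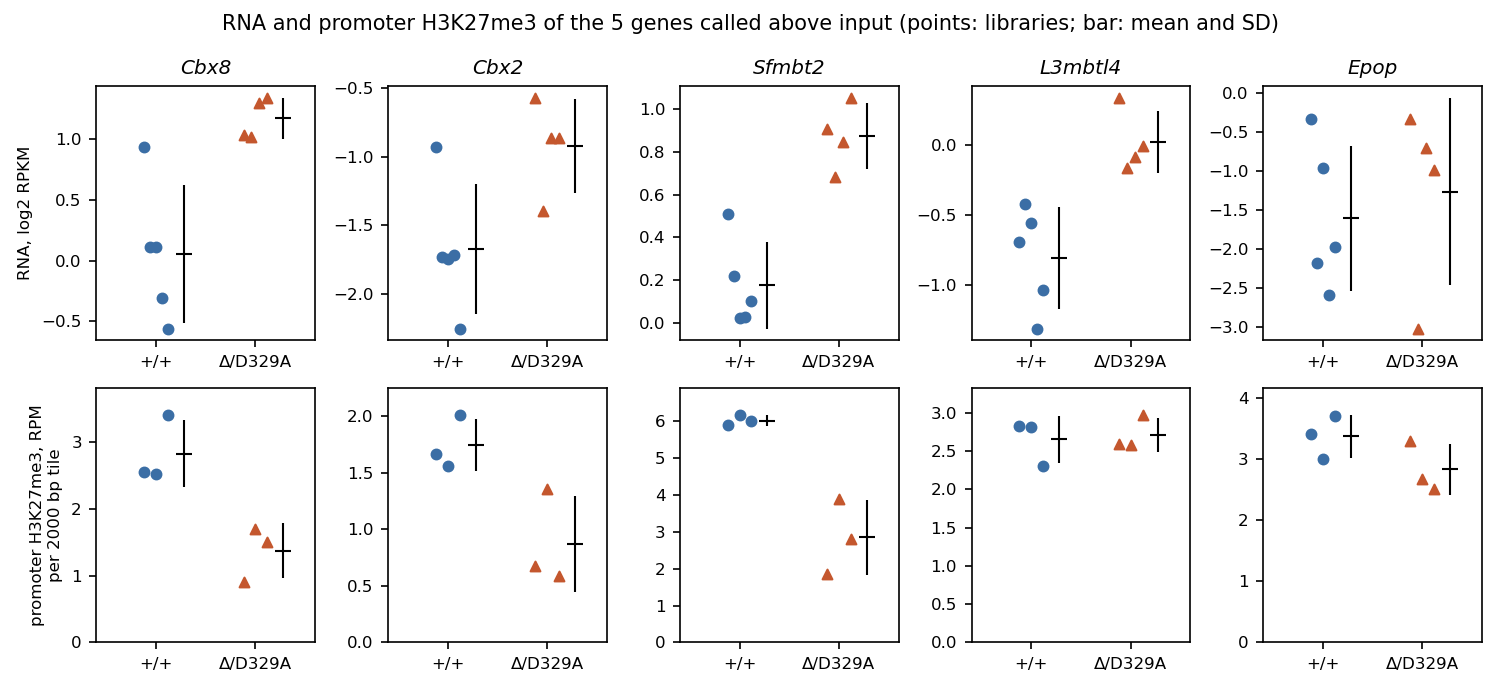
RNA (top, log2 RPKM, 5 +/+ and 4 Δ/D329A libraries) and promoter H3K27me3 (bottom, RPM per 2000 bp tile, 3 and 3 animals) of the 5 genes with H3K27me3 above input in +/+, with each library as a point and the mean and SD as a bar; the RNA axes differ between genes. Cbx8 and Sfmbt2 separate by genotype in both rows, Cbx2 in the lower row and L3mbtl4 in the upper row, and Epop in neither.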

How the data were processed

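Total RNA, depleted of ribosomal RNA, and MNase-digested chromatin of mouse hypothalamus had been sequenced. Per the labels, the authors trimmed reads with Trim Galore 0.4.3 and aligned them to GRCm38 with HISAT2 2.0.5 (RNA) and Bowtie2 2.3.2 (chromatin; the methods name Bowtie). The deposited RNA values are log2 RPKM from SeqMonk for 25965 genes, with a floor of 0.9 reads. The deposited chromatin signal is RPM, the read count scaled to library size, in 2725549 tiles of 2000 bp every 1000 bp, with input not subtracted. All value columns of both tables were used; 46 bisulfite samples were not analysed here.

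The 33 genes and the lists of other genes were chosen with earlier results of these data known; 1 gene of those lists is not reported here. RNA was tested with limma 3.58.1 (R 4.3.3; trend on the mean, two-sided) on the log2 RPKM of genes at 0.1 RPKM or more in at least 4 libraries, without 13 mitochondrial genes, with a threshold of 0.01 on the p-value adjusted by the method of Benjamini and Hochberg. Chromatin was tested across all promoters or gene bodies on log2(RPM + 0.1), called at an adjusted p under 0.05, and against input with the animal as a block and a log2 ratio beyond 1. The pseudocount makes differences of low values smaller. Gene bodies ran from 500 bp after the start to the gene end. Each value is the mean over tiles centred in the region, and reads per promoter are those of its central tile. Dividing by the value of 1 read gave whole reads for all 25965 genes (within 0.02) and for all tiles (within 0.01), and edgeR 4.0.16 and, for RNA, DESeq2 1.42.0 were run on those reads as alternatives. The fits for RNA and promoter H3K27me3 were checked on simulated reads with a fixed dispersion, in which libraries differed in depth alone. That check does not cover the differences of level between the real libraries.

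Genes given with values were, by rule, members called between genotypes, members whose genotypes did not overlap in RNA, members with H3K27me3 at a log2 ratio to input of at least 1 in each animal, the highest and lowest member of each role, and Ezh1, Ezh2, Kdm6a and Kdm6b; others are said to have been named after their values were seen, or fill an order or range. Each library is 1 animal. Replicate numbers were not taken to pair the genotypes. Promoter sequences are from RefSeq (GRCm38.p6), the build of the files, in which 74.2% of starts lie within 50 bp of a RefSeq start.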

Additional observations from a re-analysis of the deposited data

Results flagged for a closer look

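Each of the 33 genes was screened in RNA for a library far from the others of its genotype. In 66 groups this would pick about 1 in 20 by chance, and 2 were found, which is no more than that rate. Jarid2, a PRC2 accessory gene, was at 1.49 log2 RPKM in +/+ replicate 1 and at 0.97 to 1.05 in the other 4 +/+ libraries. That replicate was the highest +/+ library for 58.9% of all genes tested. Kdm6b, a demethylase of H3K27me3 whose RNA also responds to stimuli, was at 0.95 log2 RPKM in +/+ replicate 5 and at 0.09 to 0.28 in the others.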

How the results depend on the processing

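The number of members called between genotypes was 0 in RNA, in each promoter mark and in gene-body H3K36me3, and 0 to 0 when each library was left out in turn. It was 1 (Cbx8) in RNA with edgeR and with DESeq2. For H3K27me3 promoters it was 1 (Cbx8) after median centring, 2 (Cbx8 and Cbx2) after quantile normalization, 2 among the 7 members of at least 0.5 RPM and 1 among the 8 tested with edgeR. For H3K4me3 promoters it was 1 (Cbx8) after median centring, after quantile normalization and with edgeR. The cause was not tested, except that fewer promoters were tested at 0.5 RPM. Over all genes or promoters, calls ranged from 11 to 249 in RNA, 9 to 219 for H3K27me3 promoters, 0 to 277 for H3K4me3 promoters, 0 to 2 for H3K36me3 promoters and 0 to 168 for gene bodies. Leaving out libraries gave 1 to 19 calls in RNA and 1 to 15 for H3K27me3. Against input, members above for H3K27me3 went from 2 to 1 with a pseudocount of 0.5 RPM and to 0 in the Δ/D329A animals, with 2 to 3 when an animal was left out. Members below went from 21 to 6 with that pseudocount and to 12 after median centring. H3K4me3 members below went from 1 to 0 and 3 in the same order, and H3K36me3 gene bodies above from 10 to 4 with the pseudocount and to 6 in the Δ/D329A animals (9 to 11 without an animal). Calls against input over all promoters or genes moved too, over 5 settings that kept 3 animals. H3K27me3 had 2199 to 6556 above and 3799 to 10269 below. H3K4me3 had 4523 to 11559 below, and gene-body H3K36me3 1608 to 4763 above. No named value turned its direction in a call. In RNA the replicate numbers gave no sign of pairing genotypes (correlations of same-numbered deviations of -0.05 to 0.14, of others -0.19 to 0.15). Same-numbered correlations were 0.01 to 0.08 for H3K27me3 promoters (others -0.06 to 0.01) and 0.02 to 0.04 for gene-body H3K36me3 (others -0.03 to -0.005). For H3K4me3 promoters the values were larger, at -0.26 to 0.23 for same-numbered libraries and -0.41 to 0.35 for others. There +/+ replicate 3 went with mutant replicates 2 and 3 (0.33 and 0.23) and against mutant replicate 1 (-0.41). None of these values was tested. The fit with the replicate block called 16 genes in RNA and 0 members in any comparison, with Cbx8 at 0.96 in RNA (adjusted p = 0.271) and -1.02 in H3K27me3 (adjusted p = 0.096). Depth limits the low genes: Phf19 had 3 to 14 RNA reads and most promoters had fewer than 10 H3K27me3 reads.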
